A study of Mus musculus with 2 samples.

Results

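The strong sharp peaks of p53 in mouse embryonic kidney were 267 of the 7893 peaks that the authors called from 1 chromatin immunoprecipitation sequencing (ChIP-seq) library, or 3.38% of the list (95% exact interval 2.99 to 3.81%). They were chosen by the deposited score and the width of each peak: a score of 200 or more made a peak strong, and a width of less than 1000 bp made it sharp. In ChIP-seq, proteins are fixed to DNA, the fragments held by an antibody are recovered, and places where their reads pile up are called as peaks. The kidney came from wild-type mice of strain C57BL at E15.5, an embryonic stage counted in days of gestation, and the antibody was directed against p53. A library of input DNA from the same kind of kidney is part of the series, but no peak-level data of it were used here. With 1 p53 library there was no replicate, so intervals below count peaks within this library and carry no error between animals.

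p53 binds DNA as a tetramer, through a pair of adjoining half-sites, and activates genes of cell cycle arrest, DNA repair, apoptosis and metabolism. A factor that holds to one such element gives a pile of reads about as wide as the sequenced fragments, whereas a factor spread over a promoter or a cluster of elements gives a wider one. At this stage of gestation the kidney is still forming nephrons from progenitor cells, and loss of p53 in those progenitors is known to impair it. The width of a called peak also depends on fragment length and read number, neither of which the peak list gives.

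Since score and width made the choice, their values are given as a description. The 267 peaks had a median score of 256, with quartiles of 216 and 345 and extremes of 200.1 and 3100. Most stood close to the threshold: 178 scored under 300, another 57 under 500 and another 21 under 1000, and 11 reached 1000 or more. They measured 831 bp at the median, the middle 50% of them from 723.5 to 930.5 bp, and the whole class ran from 347 to 999 bp. The word sharp therefore applies in relation to other strong peaks, whose 742 broad members had a median width of 1510 bp. Over the whole list the median width was 869 bp, and 63.6% of all peaks were narrower than 1000 bp. Of the strong sharp peaks, 157 (58.8%) were narrower than that overall median. Together they covered 216 kb, compared with 1211 kb for the strong broad peaks.

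Sharp peaks made up 26.5% of the 1009 strong peaks (95% exact interval 23.8 to 29.3%). Both kinds had much the same range of scores, with quartiles of 227 and 366 and a median of 271 among strong broad peaks. Among the sharp peaks, score and width were not related in value (Spearman's rho -0.04 across 267 peaks), and among the broad ones rho was 0.20 across 742 peaks. Peaks are not independent replicates, and the cut in width limits the first value. The 3 peaks just inside the score threshold scored 200.1, 200.18 and 200.18, and the 3 narrow peaks just outside it scored 199.19, 199.92 and 199.93. The 3 widest members measured 997, 998 and 999 bp, and the narrowest strong broad peaks measured 1000, 1001 and 1005 bp.

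**Figure D1:**
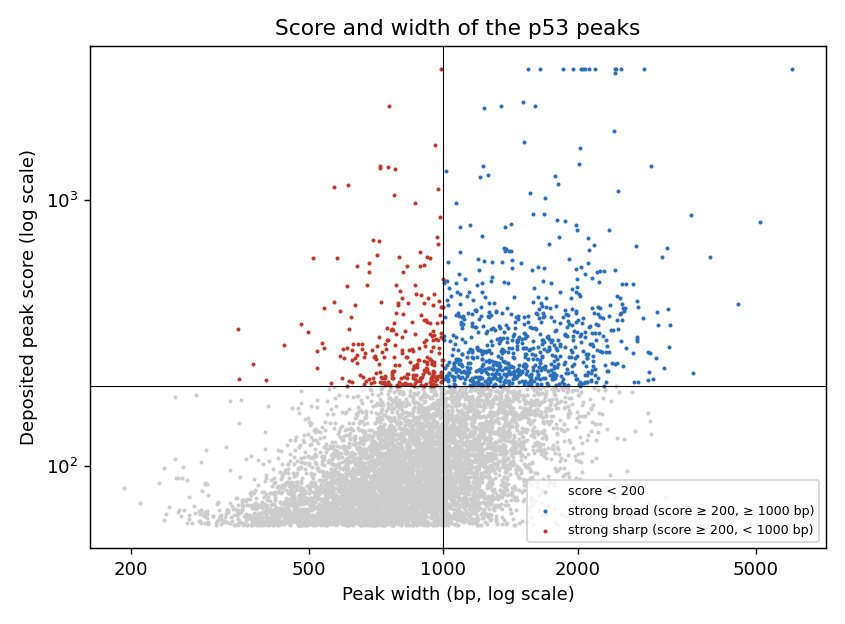
Deposited score against width in bp for all 7893 peaks, both on log scales, with lines at a score of 200 and a width of 1000 bp. The 267 strong sharp peaks (red) fill the upper left field from 347 to 999 bp and thin out above a score of 300, with no gap along either line.

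The 11 sharp peaks that scored 1000 or more lay on 9 chromosomes. Of the 15 peaks in the list that reached its highest score of 3100, 1 was sharp: chr19:10378902-10379892 (mm9), 991 bp wide, which had 11 other peaks within 500 kb. The peak at chr7:108444911-108445667 followed with a score of 2255 and a width of 757 bp. A weak peak of score 63.3 lay 5.31 kb from it. The peak at chr2:75605957-75606914 scored 1605, and that at chr10:46505329-46506052 scored 1333. Chromosome 1 carried 2 of the 11 peaks that scored 1000 or more, at chr1:156903062-156903814 (score 1329) and chr1:82312894-82313462 (score 1120.5). The others were at chr16:50700143-50700865 (score 1311), chrX:160857166-160857944 (score 1308), chr8:124356262-124356874 (score 1135), chr2:30247338-30248312 (score 1095) and chr13:58907464-58908239 (score 1046).

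Most of these 11 peaks had a weak peak as their nearest, as did most peaks of the list. The nearest other peak scored below 200 for 10 of the 11, with a median of 94.5, and the exception was the peak on chromosome 13, whose nearest peak scored 598 at a distance of 404 kb. This is near the usual make-up of the list, in which strong peaks were 12.8% of all. Over all 267 strong sharp peaks the nearest peak was strong in 32 (12.0%, 95% exact interval 8.34 to 16.5%), compared with 12.4% for strong broad peaks and 12.8% for all peaks. The next 9 in score ran from 972 at chr18:70727433-70728297 down to 609 at chr9:53055997-53056794. Of the 20 highest, 4 had another peak within 10 kb and 6 had none within 100 kb. Over all peaks, 19.8% had another within 10 kb and 72.4% had one within 100 kb, so both counts were near those of the list.

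On each chromosome the best sharp peak reached a different height. It was 725 on chromosome 4 (chr4:148681603-148682572), 701 on chromosome 11 (chr11:119959801-119960520), 618 on chromosome 5 (chr5:117737297-117738007), 608 on chromosome 3 (chr3:80861958-80862875) and 537 on chromosome 6 (chr6:54987665-54988348). It was lowest at 411 on chromosome 17 (chr17:32487099-32488003), 404 on chromosome 14 (chr14:69078334-69078967), 391.6 on chromosome 12 (chr12:17888348-17888887) and 327 on chromosome 15 (chr15:76778632-76779247). The peak on chromosome 15 was 616 bp wide and that on chromosome 12 was 540 bp. Chromosome 17 held as many sharp peaks as chromosome 8, 18 on each, yet its best scored 411 where that of chromosome 8 scored 1135.

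The narrowest strong peaks were not among the highest-scoring. The narrowest, 347 bp at chr11:87284988-87285334, scored 327. It was followed by 349 bp at chr3:5860528-5860876 (score 213), 375 bp at chr15:36319530-36319904 (score 242), 402 bp at chr8:4611898-4612299 (score 211) and 440 bp at chr8:32910336-32910775 (score 284). Their surroundings differed: the last had no other peak for 613 kb, whereas the narrowest had a peak 0.761 kb away.

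Sharp peaks were spread over the 20 chromosomes of the list in about the proportions of all peaks. Every chromosome held at least 1, from 3 on the X chromosome and 6 each on chromosomes 14 and 18 to 23 on chromosome 11. Across the 20 chromosomes their number followed the number of all peaks, of which they are a part (Pearson's r = 0.94, Spearman's rho = 0.96, as a description). As a share of a chromosome's peaks they ranged over the autosomes from 2.09% on chromosome 14 to 4.45% on chromosome 9. For 0 of the 20 chromosomes did the 95% exact interval of this share exclude the 3.38% of the whole list. As a share of strong peaks they ranged over the autosomes from 16.7% on chromosome 12 (7 of 42) to 33.3% on chromosome 8 (18 of 54), and again 0 of the 20 intervals excluded the overall 26.5%. Per 100 Mb of the span from first to last peak, the autosomes carried from 5.24 sharp peaks on chromosome 14 to 19.6 on chromosome 17, with a median of 10.6.

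Chromosome 11, which held the most peaks of any, carried 23 sharp peaks, or 8.61% of the class (95% exact interval 5.54 to 12.6%). It carried 86 strong broad peaks, or 11.6% of theirs (9.38 to 14.1%), and 8.82% of all peaks. The difference of -2.98 percentage points between sharp and broad had a 95% Newcombe interval from -6.74 to 1.53, which includes 0.

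**Figure D2:**
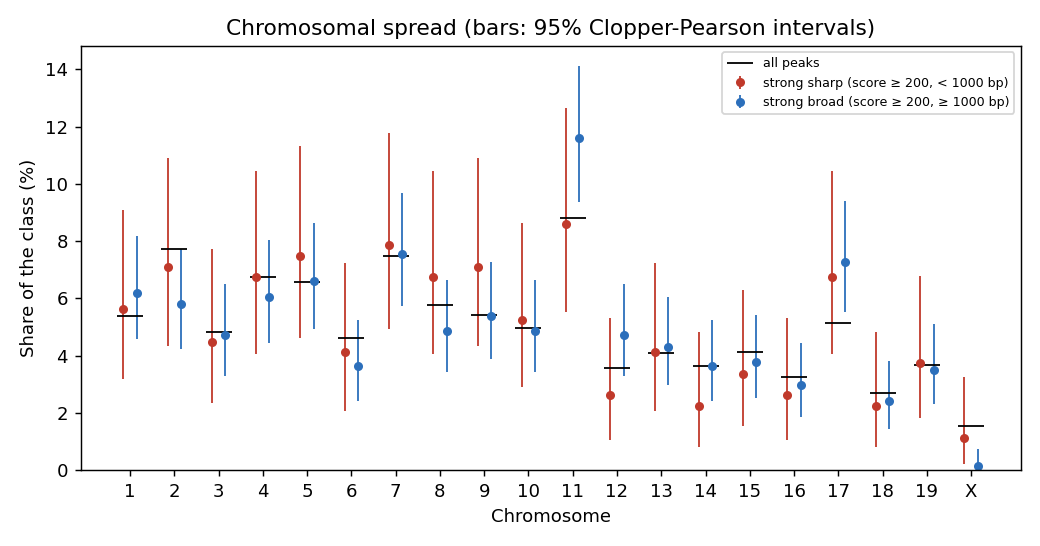
Share of each class on each chromosome in percent, for the 267 strong sharp peaks (red) and the 742 strong broad peaks (blue), with 95% Clopper-Pearson intervals and black marks for all 7893 peaks. The red points follow the black marks within their intervals; on chromosome 11 the blue point at 11.6% lies above both the red point at 8.61% and the mark at 8.82%.

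On the X chromosome 3 sharp peaks and 1 broad peak were strong. The sharp ones were chrX:160857166-160857944 (score 1308), chrX:148776807-148777586 (score 286) and chrX:103207050-103208040 (score 223). They made up 1.12% of sharp peaks (95% exact interval 0.232 to 3.25%), where the X chromosome held 1.55% of all peaks. The broad one made up 0.135% of strong broad peaks (0.00341 to 0.749%). The difference of 0.989 percentage points between sharp and broad had a Newcombe interval from 0.0199 to 3.12, whose lower end is close to 0. The exact intervals of the sharp and broad shares overlapped. Peaks on this chromosome were mostly narrow whatever their score, with 111 of its 122 below 1000 bp. Among narrow peaks that scored below 200, 2.27% lay on the X chromosome, and the difference from the strong sharp peaks, -1.15 points, had an interval from -2.02 to 1.01. The X peak that scored 1308 had 1 other peak within 500 kb, 461 kb away.

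A typical strong sharp peak lay 38.6 kb from the nearest other peak (95% order-statistic interval of the median 32.9 to 49.2 kb), measured between midpoints. The median was 33.3 kb for strong broad peaks (28.4 to 39.2 kb), 48.0 kb for narrow peaks that scored below 200 (45.1 to 50.4 kb) and 43.5 kb for all peaks. The sharp peaks stood between strong broad and weaker narrow peaks, and their interval overlapped both. Peaks of 1000 bp or wider that scored below 200 had nearly the same median, 38.9 kb (35.7 to 42.6 kb). Another peak lay within 10 kb of 49 sharp peaks (18.4%, 95% exact interval 13.9 to 23.5%) and of 183 broad ones (24.7%, 21.6 to 27.9%). Over all peaks the share was 19.8%, close to that of sharp peaks. The difference between sharp and broad was -6.31 percentage points, with a Newcombe interval from -11.6 to -0.428. This interval came to include 0 when both classes were limited to scores from 200 to below 300 (18.5 and 22.6%, interval -10.5 to 3.26) and when peaks within 1 kb were merged (14.98 and 18.3%, interval -8.16 to 2.09). A firm difference in close neighbours between sharp and broad strong peaks was therefore not shown. Narrow peaks that scored below 200 had a neighbour within 10 kb in 18.4% as well, with an interval of the difference from -4.35 to 5.17 points. For peaks of 1000 bp or wider below that score the share was 21.4% (19.7 to 23.2%), so broad peaks had the higher share in value there too.

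**Figure D3:**
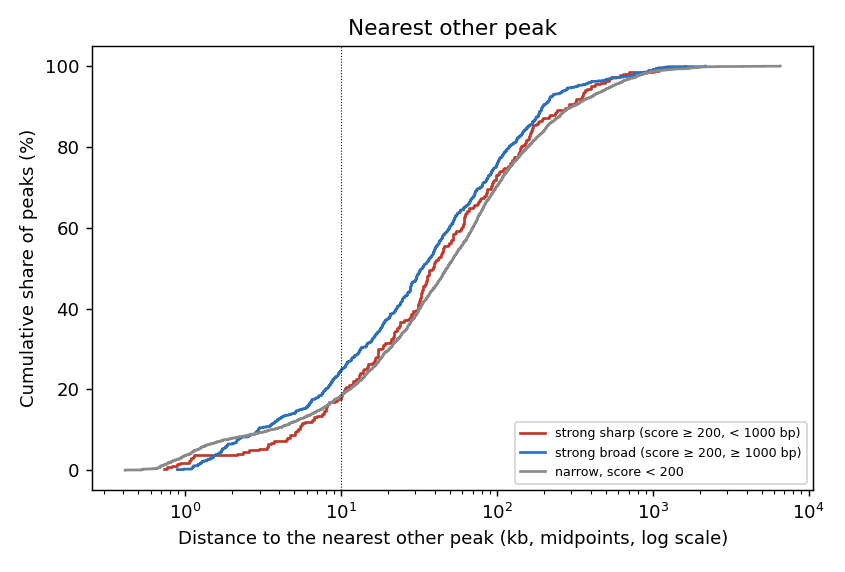
Cumulative share of peaks in percent against the distance in kb, on a log scale, to the nearest other peak for strong sharp (red), strong broad (blue) and weaker narrow peaks (grey); the dotted line marks 10 kb. At 10 kb the red and grey curves meet at 18.4% and the blue curve stands at 24.7%.

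Very close neighbours were few around sharp peaks. Another peak lay within 2 kb of 10 sharp peaks (3.75%, 95% exact interval 1.81 to 6.78%), compared with 6.47% of strong broad peaks (4.81 to 8.49%) and 7.89% of narrow peaks below a score of 200 (7.14 to 8.69%). Over all peaks the share was 7.53%. The difference from the weaker narrow peaks, -4.15 points, had an interval from -6.02 to -1.05, and that from the broad peaks, -2.72 points, had one from -5.35 to 0.665. None of the 10 neighbours was strong, but strong peaks were only 12.8% of the whole list. With 10 neighbours, a count of 0 cannot be told from that share. Another strong peak lay within 2 kb of 0 of 267 sharp peaks, where a limit of 3 counts allows a share of up to 1.12%, and of 6 of 742 broad ones. These counts were too small to show a difference. Midpoints of wide peaks cannot come as close together as those of narrow ones, and the effect of this on these shares was not tested. Among peaks that scored below 200, the share within 2 kb was 7.55% for those of 1000 bp or wider, compared with 7.89% for narrow ones.

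Further out, sharp peaks had in value fewer peaks around them than broad ones, a comparison for which no interval was computed. At 2 to 10 kb the density of other peaks was 11.7 per Mb around sharp peaks, 17.1 around broad and 8.85 around weaker narrow peaks. At 50 to 100 kb it was 10.04, 11.5 and 8.80 per Mb, and at 500 to 1000 kb it was 6.27, 6.98 and 5.81. The density of strong peaks alone fell around sharp peaks from 3.51 per Mb at 2 to 10 kb to 0.802 per Mb at 500 to 1000 kb. Around broad peaks it fell from 3.62 to 1.04 per Mb. The values around both kinds were close at 2 to 10 kb, where 15 strong neighbours were counted around sharp and 43 around broad peaks. They were also close at 10 to 25 kb, at 2.87 and 3.01 per Mb. They lay further apart at 25 to 50 kb (1.80 and 2.53) and at 50 to 100 kb (1.42 and 2.32). Below 2 kb they were 0 and 2.02 per Mb, from 0 and 6 strong neighbours, too few to compare. Chromosome ends were not allowed for in these densities.

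**Figure D4:**
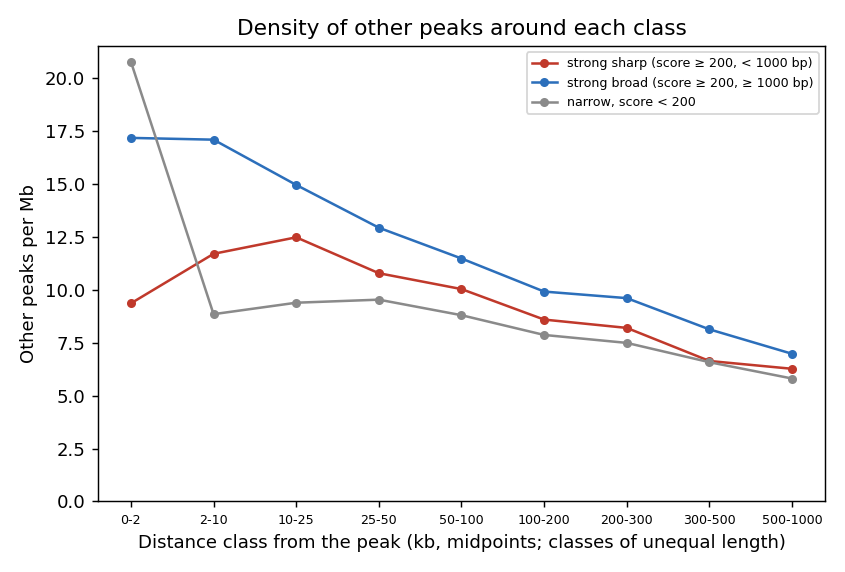
Other peaks per Mb by distance class in kb from strong sharp (red), strong broad (blue) and weaker narrow peaks (grey). The red line stays below the blue one in every class, from 11.7 against 17.1 per Mb at 2 to 10 kb to 6.27 against 6.98 at 500 to 1000 kb, and below 2 kb the grey line is the highest.

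Within 500 kb a sharp peak had a median of 6 other peaks (95% order-statistic interval 5 to 7) and a mean of 8.16. Strong broad peaks had a median of 7 (7 to 8) and a mean of 9.75, and all peaks had a median of 6 and a mean of 8.16. By this count the surroundings of sharp peaks were those of an ordinary peak of the list. The contrast with broad peaks was small at low scores and largest in value from 500 to below 1000. From 200 to below 300 the medians were 6 (5 to 7) for sharp and 7 (6 to 8) for broad peaks. From 300 to below 500 they were 5 (5 to 8) and 8 (7 to 9), and from 500 to below 1000 they were 5 (3 to 8, 21 peaks) and 11 (8 to 13, 57 peaks). At 1000 or more they were 4 (1 to 11, 11 peaks) and 8 (4 to 14, 33 peaks). The intervals of the 2 kinds overlapped or touched in each of these score classes, which were chosen after the values were seen.

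**Figure D5:**
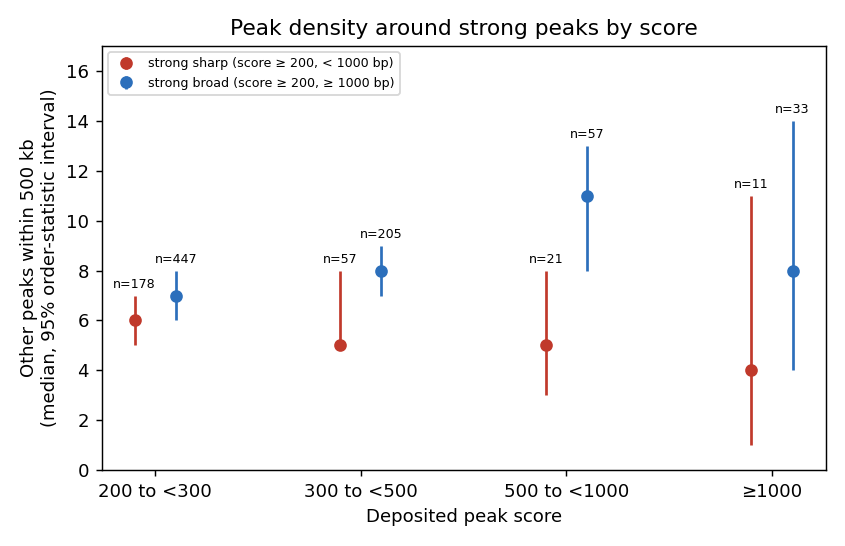
Median number of other peaks within 500 kb, with 95% order-statistic intervals, by deposited score for strong sharp (red) and strong broad (blue) peaks; n is the number of peaks. The red medians go from 6 to 4 and the blue ones from 7 to 11 and back to 8, with intervals that meet in each class.

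The narrowest members had in value the fewest peaks around them, with intervals that met between classes. The 21 sharp peaks below 600 bp had a median of 4 other peaks within 500 kb (2 to 5), the 96 from 600 to below 800 bp had 5 (5 to 7) and the 150 from 800 bp had 7 (5 to 8). The share with a neighbour within 10 kb did not follow this order, at 19.05, 19.8 and 17.3%.

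Some strong sharp peaks stood alone. No other peak lay within 500 kb of 10 of them (3.75%, 95% exact interval 1.81 to 6.78%), compared with 3.50% of strong broad and 4.83% of all peaks. The most distant from any other was chr17:61613496-61614168 (score 209), 1619 kb from the nearest. It was followed by chr10:46505329-46506052 at 1208 kb, chr17:41071137-41071944 (score 203) at 1089 kb, chr13:20227167-20227755 (score 258.5) at 1025 kb and chr10:27085556-27086278 (score 226) at 709 kb. The peak at chr10:46505329-46506052 combined this distance with a score of 1333, the fourth highest of the class and the highest on its chromosome. The other 9 of these 10 isolated peaks scored from 203 to 439. For the peak at chr17:41071137-41071944 the nearest peak had the highest score of the list, 3100.

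Others stood in the densest parts of the list. The peak at chr11:69394481-69395395 (score 203) had 43 other peaks within 500 kb, chr10:80499714-80500536 (score 320) had 37 and chr10:80645310-80646165 (score 232) had 35. Next came 2 peaks with 30 each, chr13:23653959-23654684 (score 216) and chr13:23665922-23666458 (score 291). The 2 on chromosome 13 lay within 500 kb of each other, as did the 2 on chromosome 10, so their windows overlapped and shared peaks. Of the 267 sharp peaks, 21 (7.87%, 95% exact interval 4.93 to 11.8%) had 20 or more other peaks within 500 kb, compared with 12.1% of strong broad peaks (9.87 to 14.7%) and 8.02% of all peaks.

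Strong broad peaks lay less often near sharp peaks than near each other. A strong broad peak stood within 100 kb of 41 of 267 sharp peaks (15.4%, 95% exact interval 11.3 to 20.2%) and of 195 of 742 broad ones (26.3%, 23.1 to 29.6%). The difference was -10.9 percentage points, with a Newcombe interval from -15.97 to -5.23, in which each close pair of broad peaks counts for both its members. It was -8.65 points (-15.04 to -1.38) when both classes were limited to scores from 200 to below 300. With a width below 800 bp as the rule for sharp peaks the interval included 0 (-12.7 to 2.23). Under that rule the class compared with sharp peaks was the 892 strong peaks of 800 bp or wider, so it held peaks called sharp elsewhere here. The median distance to the nearest strong broad peak was 745 kb from a sharp peak (568 to 971 kb) and 388 kb from a broad one (346 to 473 kb). This comparison was added after the values were seen, and no such share was computed for all peaks or for weaker narrow peaks. The density of strong peaks of either kind was in value higher around sharp than around weaker narrow peaks from 2 to 500 kb. It was 3.51 and 1.47 per Mb at 2 to 10 kb, and 1.42 and 1.23 at 50 to 100 kb. Below 2 kb it was 0 and 1.74 per Mb, from 0 strong neighbours around 267 sharp peaks and 33 around 4752 weaker narrow ones. With so few sharp peaks, the count of 0 does not show a lower density. At 500 to 1000 kb the values were close (0.802 and 0.809).

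Distances to the nearest sharp peak had overlapping intervals for both kinds of strong peak. The median distance to the nearest sharp peak was 1929 kb from another sharp peak (1618 to 2485 kb) and 1625 kb from a strong broad one (1455 to 1979 kb). Within 100 kb, 20 of 267 sharp peaks (7.49%) and 57 of 742 broad ones (7.68%) had a sharp peak. Within 10 kb of each other lay 3 pairs, made of 6 peaks. One was on chromosome 8, chr8:124109034-124109927 (score 369) and chr8:124113797-124114572 (score 257), with midpoints 4.70 kb apart. The others were both on chromosome 11: chr11:87256825-87257393 (score 412) with chr11:87262222-87262905 (score 580), 5.45 kb apart, and chr11:87275896-87276489 (score 215) with chr11:87284988-87285334 (score 327), 8.97 kb apart.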

How the data were processed

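Peaks of 1 p53 ChIP-seq library were analysed as the authors deposited them, with chromosome, start, end, name and score. Peaks were called with MACS on build mm9, per the submitters' processing notes; the aligner, MACS version and settings and any use of the input as control were not given in the sources used here. The score is the authors' deposited value, 1 per peak, on a scale the file does not state, and it stops at 3100. It was used only to select and rank peaks. No read counts are in the list, so depth is unknown.

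Widths are end minus start, and starts are printed 1-based. Distances run between midpoints, and any peak of the list counts as a neighbour. Intervals are at 95%: Clopper-Pearson for shares, Newcombe for differences of shares, order statistics for medians. They cover counting only and treat peaks as independent, which neighbours are not. The limit beside a count of 0 is 3 counts over the total, not a Clopper-Pearson bound. No test was run, since peaks of 1 library are not replicates. Neighbour counts were checked on simulated peaks set on a regular grid with planted partners, and median intervals on independent draws. Neither has the clustering of real peaks, so coverage of the intervals for such peaks was not tested.

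The class and the lists were chosen with earlier results of these data known. Named peaks are the 20 highest-scoring sharp peaks (the first 11 and the ends of the others printed), the best of each chromosome, the 5 narrowest, 5 most distant and 5 most crowded, all pairs within 10 kb, and 3 on each side of each threshold. Neither sequence nor annotation of mm9 was used, so genes, transcription starts, the p53 consensus and peak sequences were not analysed here. Python 3.11.15, numpy 2.4.6, pandas 2.3.3, scipy 1.17.1 and matplotlib 3.10.9 were used.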

Additional observations from a re-analysis of the deposited data

How the results depend on the processing

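A score of 300 or more left 89 strong sharp peaks and a width below 800 bp left 117, in place of 267, as narrower rules must. With only peaks of score 100 or more as neighbours, the share with another within 10 kb was 10.5%, the median distance to the nearest 91.2 kb and the median number within 500 kb 3, since fewer peaks are counted. Within 100 kb 73.0% of sharp peaks had another, and the median number in a window of 100 kb was 1. The other alternatives left each of these values within its interval. Sharp peaks had the lower share of close neighbours than broad ones under 7 of 7 alternatives, but the interval of the difference included 0 under 5 of them. Their share on chromosome 11 was below that of broad peaks under 2 of 3 alternatives and above it with a width below 800 bp, at 12.0 and 10.7%. Under the width rule, strong peaks of 800 bp or wider counted as broad, 892 in place of 742. A strong broad peak lay within 100 kb of 12.4 to 17.9% of sharp peaks under 5 alternatives chosen after the data were seen, each below the share for broad peaks. Alternatives for transcription starts and the p53 consensus were not run, as mm9 was not used. No paired analysis was possible because the p53 arm is a single library. Whether a peak would keep its class at another depth was not tested.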

Other observations

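A stretch of chromosome 11, chosen after its values were seen, held 4 of the 267 strong sharp peaks in 28.5 kb, from 87256825 to 87285334 (mm9), which was also the most in any 100 kb. Their scores were 412, 580, 215 and 327 and their widths 569, 684, 594 and 347 bp, so that the narrowest strong peak of the list was among them. One weaker peak, of score 120 and 479 bp, lay 0.761 kb from the last of these, between midpoints. Before the stretch stood 2 strong broad peaks, chr11:87235752-87237338 (score 883, 1587 bp) and chr11:87239779-87240869 (score 788, 1091 bp). Of the 8 peaks from 50 kb before the stretch to 50 kb after it, 6 were strong, including the 4 sharp peaks that defined it. Strong peaks were 12.8% of the whole list. The list had no peak in the 50 kb after the stretch.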
